A study of Mus musculus with 24 samples.

Results

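The Schlafen family was read as the 7 genes *Slfn1*, *Slfn2*, *Slfn3*, *Slfn4*, *Slfn5*, *Slfn8* and *Slfn9*, chosen by their symbols in GENCODE M21 from the 54532 gene identifiers counted in every sample. RNA-Seq counts came from 4 tissues (heart, stomach, muscle, tongue) of *Trex1*-knockout mice that had received the STING antagonist SN-011 or served as controls, with 3 samples in each of the 8 groups. Every mouse lacked *Trex1* in all cells from birth, and no group had intact *Trex1*, so the samples show the effect of SN-011 on a knockout background and not the effect of the knockout. In the study's methods, C57BL/6J mice of 1 month of age were injected intraperitoneally each day for 2 weeks, with 10 mg/kg of SN-011 or, for controls, with 1% Tween 80 in PBS. The sample labels give 5 mg/kg, 3 times a week over 4 weeks, and describe the controls as not given SN-011. The tissue and treatment in each sample's title set the groups here, and the study describes the same 4 tissues and both arms.

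The product of *Trex1* is an exonuclease that degrades cytosolic DNA. Without it, DNA accumulates, cGAS makes the second messenger that activates STING, and type I interferon is produced. Schlafen genes are named after the German word for sleep, because *Slfn1* halts the growth of T cells when overexpressed, and many members are switched on by interferon. The short members *Slfn1* and *Slfn2* lack the helicase domain that the long members *Slfn5*, *Slfn8* and *Slfn9* carry, and *Slfn3* and *Slfn4* are of intermediate length. *Slfn2* keeps T cells in quiescence and binds transfer RNA, and *Slfn4* is known as a marker of interferon-stimulated myeloid cells.

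All 7 genes lie in a single cluster of 263.806 kb on chromosome 11 of GRCm38 (chr11:82951349-83215154). Their order along the plus strand is *Slfn5*, *Slfn9*, *Slfn8*, *Slfn2*, *Slfn1*, *Slfn4* and *Slfn3*. *Slfn8* (ENSMUSG00000035208, chr11:83002158-83020810) and *Slfn9* (ENSMUSG00000069793, chr11:82978390-82991830) are on the minus strand. *Slfn5* (ENSMUSG00000054404, chr11:82951349-82964840), *Slfn2* (ENSMUSG00000072620, chr11:83065112-83070678), *Slfn1* (ENSMUSG00000078763, chr11:83116849-83122670), *Slfn4* (ENSMUSG00000000204, chr11:83175186-83190216) and *Slfn3* (ENSMUSG00000018986, chr11:83191330-83215154) are on the plus strand. The merged exons span 1864 bases in *Slfn1*, 1664 in *Slfn2*, 3411 in *Slfn3*, 3964 in *Slfn4*, 6326 in *Slfn5*, 4091 in *Slfn8* and 5965 in *Slfn9*.

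The promoter windows of RefSeq (GRCm38.p6) were searched on both strands, over the 250 bases before each start, for letters to which interferon-activated factors are known to bind. A pair of GAAA half-sites 2 bases apart, the core of the interferon-stimulated response element, was in 2.98% of 32851 windows, and the longer form with CT right after the pair, which contains the core, was in 0.222%. *Slfn5*, *Slfn8* and *Slfn9* had the core, and *Slfn8* and *Slfn9* also had the longer form, on the strand opposite to the gene. Neither was found in the windows of *Slfn1*, *Slfn2*, *Slfn3* and *Slfn4*. These are matches of letters within the windows searched and no measurement of binding. The stretches around the matches are shown because *Slfn8* and *Slfn9* shared them almost letter for letter, with the match in capitals (the longer form read from the other strand in *Slfn8* and *Slfn9*, the core in *Slfn5*).
Slfn8, chr11:83020811-83020920, minus strand: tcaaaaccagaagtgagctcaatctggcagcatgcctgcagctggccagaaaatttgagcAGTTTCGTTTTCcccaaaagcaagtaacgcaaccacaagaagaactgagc
Slfn9, chr11:82991831-82991937, minus strand: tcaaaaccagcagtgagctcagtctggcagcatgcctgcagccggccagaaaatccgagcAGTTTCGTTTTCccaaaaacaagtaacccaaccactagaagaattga
Slfn5, chr11:82951938-82951965, plus strand: cttcaaagtGAAAAAGAAAaaaaaaaaa
The match ran from 50 to 39 bases before the RefSeq start in *Slfn8*, from 47 to 36 in *Slfn9* and from 155 to 146 in *Slfn5*. The *Slfn5* stretch lies inside the gene as GENCODE M21 places it (chr11:82951349-82964840), outside annotated exons, because the RefSeq start used is further along the plus strand. The *Slfn8* and *Slfn9* stretches matched at 98 aligned bases and differed at 9, with 3 gap bases.

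Near-identical copies could take each other's reads. The transcripts of *Slfn8* and *Slfn9* were 92.3% identical over 3728 aligned bases, and those of *Slfn3* and *Slfn4* were 94.9% identical over 1376. Stretches of 150 bases, the read length, that occurred unchanged in another gene made up 1.29% of *Slfn3* (shared with *Gm11427*), 5.46% of *Slfn5* (shared with *Slfn5os*, an antisense gene) and 1.46% of *Slfn9* (shared with the pseudogene *Slfn10-ps*), and none of *Slfn1*, *Slfn2*, *Slfn4* and *Slfn8*. The strand setting of the counting is not given in the sources used here. *Slfn5os* shares 559 exon bases with *Slfn5* and had at most 67 counts in any sample.

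The total count per sample was 14253416 to 18443329, so that 3 counts, the limit that a count of 0 allows, equalled 0.163 to 0.210 CPM (counts scaled to library size), for counting error only. Some libraries stood apart. Only 11546 genes were detected in muscle SN-011 replicate 2, and 19798 to 24264 in the other samples. *Xist*, from the X chromosome, was counted 3060 to 13811 times in control replicate 1 of every tissue and at most 20 times elsewhere. *Ddx3y*, from the Y chromosome, was counted at most 3 times in those 4 libraries and at least 825 times elsewhere, so that sex and treatment are unevenly crossed. *Trex1* had 0 counts in all samples but shares its position with *Atrip*, and this count does not check the genotype. The markers of each labelled tissue were present in its controls, with cardiac muscle genes summing to at least 28714 CPM in the heart, skeletal muscle genes to at least 121129 CPM in muscle, gastric gland genes to at least 34036 CPM in the stomach and keratins to at least 13316 CPM in the tongue. The labels do not say that same-group samples came from separate mice, and the study's figure legend gives n = 3 per group. Control replicate 1 differed from controls 2 and 3 in these sex-linked counts, so each control group held more than 1 mouse. Where same-group samples did share a mouse, the p-values cover technical spread for those samples.

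Per kb of merged exons, the members were not equally abundant, and the most abundant one depended on the tissue. In control samples, *Slfn2* had the highest level of the family in the heart (74.6 ± 12.8 CPM per kb, SD, n = 3), muscle (19.3 ± 1.81) and tongue (138 ± 40.4), and *Slfn4* had the highest in the stomach (191 ± 98.5). *Slfn3* had the lowest in all 4 tissues, from 0.136 ± 0.0295 CPM per kb in the stomach to 1.38 ± 0.378 in the heart. The share of the summed level of all 7 genes that was *Slfn4* was 64.6% ± 11.9 in stomach controls, against 18.8% ± 4.03 in the heart, 27.7% ± 4.70 in muscle and 30.3% ± 9.41 in the tongue. The share that was *Slfn5* was 4.30% ± 1.20 in stomach controls, 6.59% ± 3.63 in the tongue, 17.1% ± 1.45 in the heart and 22.2% ± 1.65 in muscle. Shares of the same sum are not independent, so a high *Slfn4* share lowers those of the other members. The level of *Slfn5* itself, 11.5 ± 3.17 CPM per kb in stomach controls and 12.9 ± 0.727 in muscle controls, did not differ (adjusted p = 0.536, edgeR). In these bulk samples, fewer cells of a type and less RNA per cell cannot be told apart.

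**Figure D1:**
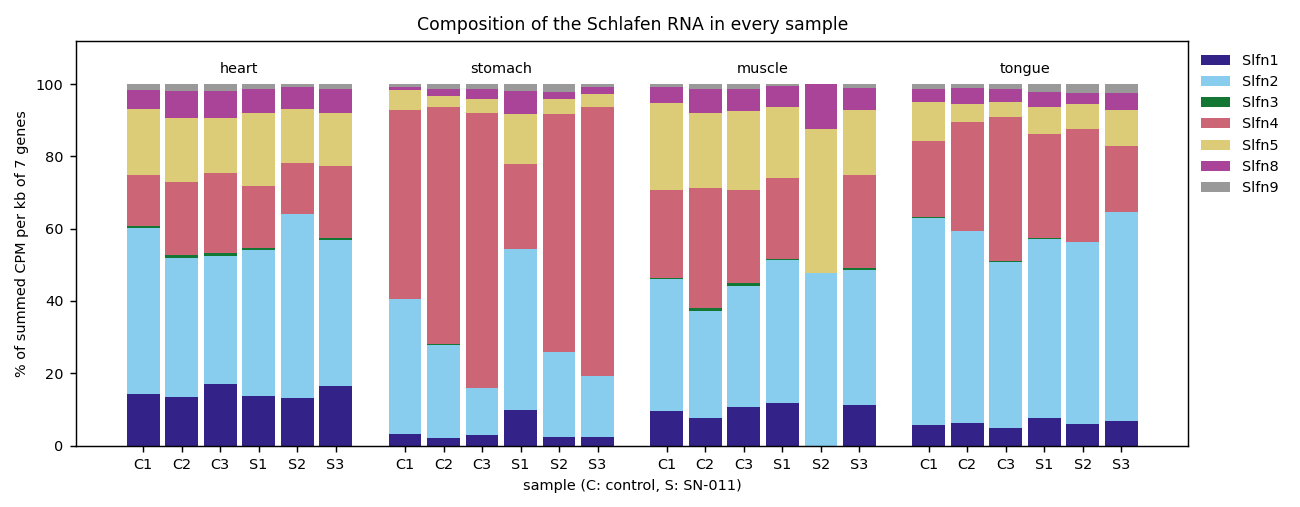
Share of each Schlafen gene in the summed level of the 7 genes (y axis, percent of CPM per kb) in each of the 24 samples (x axis, C for control and S for SN-011, numbered by replicate). Slfn4 made up 52.2% to 76.0% in the 3 stomach controls and 23.5% to 74.6% in the 3 stomach SN-011 samples, and muscle SN-011 replicate 2 shows only Slfn2, Slfn5 and Slfn8.

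Levels between tissues were compared in control samples, in 1 edgeR quasi-likelihood fit of all 24 samples with Benjamini-Hochberg adjustment over 19731 genes. Of the 42 differences, 7 genes over 6 pairs of tissues, 22 had an adjusted p under 0.05. Relative to muscle, 6 of 7 members were higher in the heart, where 33.7% of all genes differed, 3 were higher in the stomach, where 51.6% differed, and 4 were higher in the tongue, where 38.1% differed. Against the stomach, 4 members were higher in the heart and 1, *Slfn4*, was lower (42.5% of all genes differed). *Slfn2* and *Slfn3* were higher in the tongue than in the stomach (36.9%), and between heart and tongue *Slfn5* was higher in the heart and *Slfn2* in the tongue (29.1%). The median log2 difference of the 7 genes was 1.93 for heart minus muscle and -1.68 for muscle minus tongue, beside 0.11 and -0.08 over all genes.

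*Slfn2* was ordered tongue, heart, stomach and muscle. Its values in control samples were 91.5 to 162 CPM per kb (tongue), 59.8 to 82.2 (heart), 48.1 to 80.9 (stomach) and 17.4 to 21.0 (muscle). The tongue exceeded the heart (log2 difference 0.89, SE 0.23, adjusted p = 0.00641, edgeR) and the stomach exceeded muscle (1.72, SE 0.24, adjusted p = 4.8e-06), whereas heart and stomach did not differ beyond their spread (0.23, SE 0.23). *Slfn5* was highest in the heart, at 27.7 to 35.8 CPM per kb against 9.19 to 17.2 in the other 3 tissues, which did not differ from their neighbours in the order. Heart exceeded tongue for *Slfn5* by 1.04 (log2, SE 0.22, adjusted p = 0.00116, edgeR).

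*Slfn4* spanned the widest range between samples. Stomach controls had 85.6 to 281 CPM per kb, tongue controls 33.7 to 140, heart controls 25.5 to 50.9 and muscle controls 13.1 to 19.4. No neighbours in that order differed, and the stomach exceeded muscle by 3.56 (log2). *Slfn9* was 3.82 ± 2.20 CPM per kb in the stomach, 3.32 ± 0.780 in the heart and 3.26 ± 1.01 in the tongue, which did not differ, and 0.678 ± 0.198 in muscle, below the tongue by 2.27 (log2, adjusted p = 0.00618, edgeR). *Slfn1* and *Slfn8* were ordered heart, tongue, stomach and muscle, with no neighbours differing. *Slfn3* was ordered heart, tongue, muscle and stomach, again with no neighbours differing.

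Of these 22 differences, 16 kept an adjusted p under 0.05 in every alternative that could test them. The 6 others did so in some alternatives: *Slfn3* in heart against muscle (17 of 31) and stomach against tongue (12 of 31), *Slfn4* in heart against stomach (15 of 31) and muscle against tongue (13 of 31), *Slfn1* in heart against stomach (28 of 31) and *Slfn8* in heart against stomach (26 of 32). Each of the 6 was lost without single libraries. Both *Slfn3* differences were also lost when no filter on low counts was used (adjusted p = 0.0680 and 0.0694, edgeR). *Slfn8* in heart against stomach was also lost with DESeq2 size factors, with library size alone and in the 12 control samples alone (0.0539, 0.0761 and 0.0786). *Slfn1* and *Slfn8* in heart against stomach were both lost without heart control replicate 3 (adjusted p = 0.0860 and 0.132, edgeR), without stomach control replicate 1 (0.0811 and 0.0981) and without stomach control replicate 2 (0.0712 and 0.0720). The fit took samples of different tissues as independent, and the sources used here do not say whether same-numbered samples came from 1 mouse. Control replicate 1 of every tissue shared counts of *Xist*. Same-numbered controls of different tissues deviated together with a mean r of 0.23 (from -0.14 to 0.50). Deviations were taken from the mean of each group of 3, so the mean r of other-numbered controls (-0.11) is no separate baseline. With samples of 1 treatment and number as a block, 19 of the 42 differences had an adjusted p under 0.05, without both *Slfn3* differences and the *Slfn4* differences of heart against stomach and muscle against tongue (0.0514 to 0.0669, edgeR). Without muscle SN-011 replicate 2, the heart against tongue pair gained *Slfn1* and *Slfn3*, for 4 members in all. The share of all genes called in these alternatives is not given here, so the counts show only which calls changed.

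**Figure D2:**
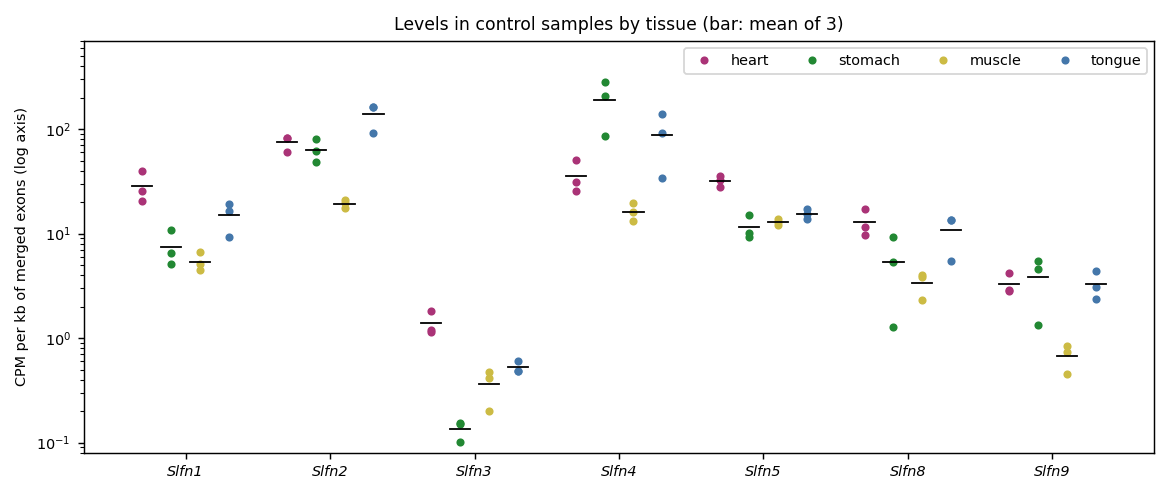
Level of each Schlafen gene in control samples (y axis, CPM per kb of merged exons, log axis) in the 4 tissues, 1 point per sample, with a bar at the mean of 3. Slfn4 in the stomach and Slfn2 in the tongue have the highest means, at 191 and 138, and Slfn3 in the stomach the lowest, at 0.136.

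SN-011 was then compared with control within each tissue, by the edgeR quasi-likelihood test on the counts of 3 against 3 samples. No Schlafen gene passed an adjusted p of 0.05 in any tissue, so none can be said to have fallen or risen in this test. All genes tested gave 0.848% called in the heart, 0% in the stomach, 0.0141% in muscle and 0% in the tongue. The fitted log2 fold change was negative for 7 of 7 members tested in the heart, 6 of 6 in stomach, 6 of 6 in muscle and 6 of 7 in tongue, where 51.4%, 49.8%, 55.5% and 51.5% of all genes tested were negative. *Slfn3* had too few counts to be tested in the stomach and muscle. For heart, stomach, muscle and tongue, the members' median log2 fold change was -0.45, -0.43, -0.36 and -0.74, beside -0.01, 0.00, -0.08 and -0.01 over all genes. With 3 samples against 3, the exact two-sided permutation test of 1 gene cannot give a p below 0.1.

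**Figure D3:**
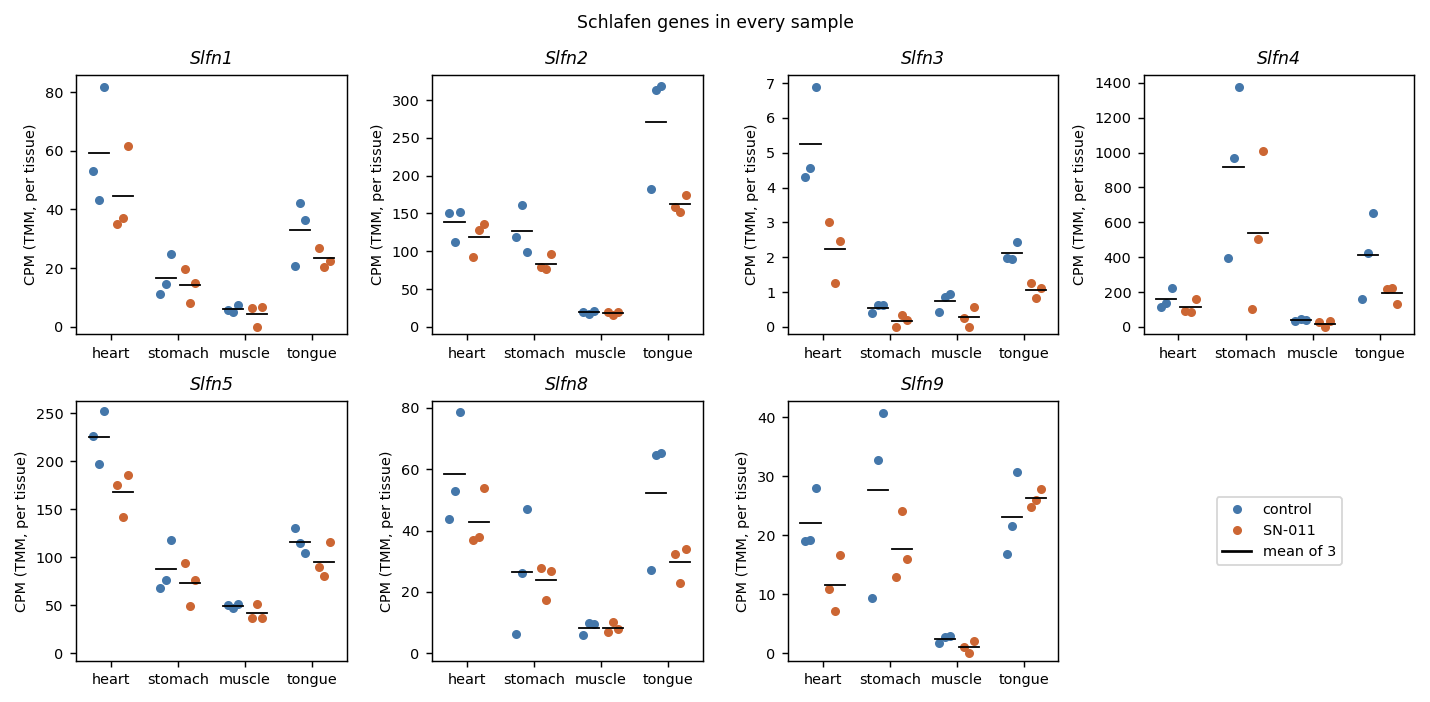
CPM of each Schlafen gene in every sample (y axis, TMM-scaled within a tissue, a separate linear axis for each gene) by tissue (x axis), control in blue and SN-011 in orange, with a bar at the mean of 3. In the heart, the SN-011 samples of Slfn3, Slfn5 and Slfn9 sit below every control sample.

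In the heart, 3 members had every SN-011 sample below every control sample, an order found in 13.1% of all genes tested there. The same 3 had an unadjusted p under 0.05 with a lower mean, as had 11.6% of all genes. *Slfn5*, a long Schlafen with a helicase domain, had 226, 197 and 252 CPM in controls 1, 2 and 3 and 176, 142 and 186 CPM in SN-011 samples 1, 2 and 3. The lowest control thus lay just above the highest SN-011 sample, and the log2 fold change was -0.42 (SE 0.15, adjusted p = 0.147, edgeR).

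*Slfn9* in the heart had 19.0, 19.1 and 28.0 CPM in controls and 10.9, 7.10 and 16.6 CPM in SN-011 samples. The groups did not overlap, with a log2 fold change of -0.93 (SE 0.29, adjusted p = 0.123, edgeR). *Slfn3* had 4.30, 4.56 and 6.90 CPM in controls and 3.02, 1.25 and 2.46 CPM with SN-011. Its groups were also apart, with a log2 fold change of -1.23 (SE 0.36, adjusted p = 0.113, edgeR), on 66 to 129 counts per control library and 19 to 45 with SN-011. *Slfn3* and *Slfn9* passed the threshold in the heart when no filter on low counts was used or DESeq2 replaced edgeR. The share of all genes called in those fits is not given here, so this does not set the 2 genes apart. Exact permutation gave p = 0.1 for each of these 3 genes, the smallest possible.

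The other 4 members overlapped between the groups in the heart. *Slfn8*, the neighbour and near copy of *Slfn9*, had 43.8, 52.9 and 78.7 CPM in controls and 36.9, 37.7 and 54.0 CPM with SN-011. SN-011 sample 3 lay above 2 of the controls (log2 fold change -0.45, SE 0.23). *Slfn1* had a log2 fold change of -0.41 (SE 0.27), *Slfn2* of -0.23 (SE 0.18) and *Slfn4* of -0.49 (SE 0.30). These values moved with single libraries, and leaving out 1 at a time gave -0.74 to -0.12 for *Slfn1*, -0.35 to -0.07 for *Slfn2*, -0.85 to -0.16 for *Slfn4* and -0.66 to -0.18 for *Slfn8*. T cell markers, of which all 10 were tested in the heart with 10 negative and 0 called, summed to 192 to 369 CPM in controls and 161 to 244 CPM with SN-011, and B cell markers to 27.9 to 424 CPM in controls and 13.6 to 178 CPM with SN-011. The T cell and B cell sums overlapped between the groups, as did macrophage markers, at 2303 to 2910 CPM in controls and 2177 to 2991 CPM with SN-011. Of 6 cardiac muscle genes, 0 were negative and 0 were called, with a median log2 fold change of 0.43, and they summed to 28714 to 40619 CPM in controls and 39774 to 48013 CPM with SN-011. The part of these cells in the Schlafen values was not tested.

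In the stomach, *Slfn2* alone of the tested members had its groups apart, an order found in 15.2% of all genes tested there. Its values were 119, 161 and 99.2 CPM in controls and 79.5, 76.0 and 95.9 CPM with SN-011. The gap between the lowest control and the highest SN-011 sample was small, and the log2 fold change was -0.59 (SE 0.27, adjusted p = 0.213, edgeR). No member had an unadjusted p under 0.05 there, against 11.4% of all genes that did with a lower mean. *Slfn3*, not tested, had 5, 10 and 12 counts in controls and 0, 5 and 3 counts with SN-011, at or near the limit of detection.

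*Slfn4* varied in the stomach more within a group than between the groups. Its values were 395, 971 and 1378 CPM in controls and 100.03, 504 and 1010 CPM with SN-011. The lowest SN-011 sample was far below both others, and the log2 fold change was -0.77 with an SE of the same size. *Slfn8* and *Slfn9* were also spread in the controls, from 6.13 to 47.1 CPM and from 9.28 to 40.7 CPM, in both cases with control 1 lowest. Leaving out single libraries turned the sign of *Slfn1* (to 0.14 without control replicate 3 and 0.03 without SN-011 replicate 2) and of *Slfn8* (to 0.54 and 0.03). Gastric gland markers, the defining genes of the tissue, themselves ranged from 34036 to 114687 CPM in controls and from 19601 to 100208 CPM with SN-011. Keratins of stratified epithelium, of which 5 were tested with 0 negative and 0 called, summed to 110 to 235 CPM in controls and 441 to 1457 CPM with SN-011. Neutrophil markers, of which 3 were tested with 0 negative and 0 called, summed to 2.66 to 6.42 CPM and 9.96 to 22.0 CPM. The groups did not overlap in either of these sums, and the part of these cells in the Schlafen values was not tested.

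In muscle, no tested member had its groups apart, an order found in 19.8% of all genes tested there, or an unadjusted p under 0.05 with a lower mean (5.8% of all genes). SN-011 replicate 2, the library with few genes detected, had 0 counts of *Slfn1*, *Slfn3*, *Slfn4* and *Slfn9* but 197 of *Slfn2*, 631 of *Slfn5* and 125 of *Slfn8*. *Slfn4* had 32.1, 46.5 and 37.7 CPM in controls and 25.7, 0 and 32.3 CPM with SN-011. The zero carried much of the fitted log2 fold change of -1.0, which was -0.42 without that library. *Slfn5* had 50.4, 46.6 and 51.4 CPM in controls and 36.5, 51.5 and 36.5 CPM with SN-011, the high value again being SN-011 replicate 2. Without that library, *Slfn5* was lower with SN-011 (log2 fold change -0.44, adjusted p = 0.0498, edgeR), in a fit that called 7.4% of all genes, and *Slfn1* and *Slfn2* turned to 0.10 and 0.0029. *Slfn5os*, which overlaps *Slfn5*, had its 67 counts in that library. Skeletal muscle genes summed to 121129 to 135200 CPM in controls and 148971 to 170682 CPM with SN-011, and macrophage markers to 631 to 648 CPM and 668 to 846 CPM, both without overlap, and their part in the Schlafen values was not tested.

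In the tongue, *Slfn2* and *Slfn3* had their groups apart, an order found in 8.38% of all genes tested there, and *Slfn2*, *Slfn3* and *Slfn8* had an unadjusted p under 0.05 with a lower mean (7.33% of all genes). *Slfn2* had 182, 313 and 319 CPM in controls and 159, 153 and 175 CPM with SN-011. Control 1 was close to the SN-011 samples and controls 2 and 3 were well above them (log2 fold change -0.74, SE 0.22, adjusted p = 0.306, edgeR). *Slfn8* had 27.0, 64.7 and 65.2 CPM in controls and 32.2, 23 and 33.9 CPM with SN-011. Control 1 lay inside the SN-011 range and the other controls far above it (log2 fold change -0.82, SE 0.34, adjusted p = 0.397, edgeR).

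*Slfn4* in the tongue had 160, 422 and 656 CPM in controls and 220, 226 and 130 CPM with SN-011. Control 1 again fell among the SN-011 samples, and the log2 fold change was -1.11 (SE 0.48, adjusted p = 0.402, edgeR). *Slfn3*, at 1.99, 1.94 and 2.44 CPM in controls and 1.25, 0.841 and 1.12 CPM with SN-011, had a log2 fold change of -0.98 (SE 0.35, adjusted p = 0.355, edgeR). *Slfn9* was the exception to the direction, with 16.9, 21.5 and 30.7 CPM in controls and 24.8, 26.0 and 27.8 CPM with SN-011 (log2 fold change 0.19, SE 0.22). The SN-011 samples lay between the second and the highest control.

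The tongue values moved with single controls. Without control replicate 3, the log2 fold change was -0.61 for *Slfn4* (adjusted p = 0.644, edgeR) and 0.45 for *Slfn9* (adjusted p = 0.470). Without control replicate 2, it was -0.30 for *Slfn1* (adjusted p = 0.807, edgeR). Without control replicate 1, 4 members were lower with SN-011: *Slfn2* (log2 fold change -0.96, adjusted p = 0.00363, edgeR), *Slfn8* (-1.13, adjusted p = 0.00786), *Slfn4* (-1.49, adjusted p = 0.0129) and *Slfn1* (-0.75, adjusted p = 0.0229). In that fit 12.5% of all genes were called. The controls left in it, 2 and 3, had gastric gland markers at 2505 and 1803 CPM, against 39.0 CPM in control 1. Control 3 also had neutrophil markers at 372 CPM. The part of these libraries' other tissue or cells in that fit was not tested. Control 1 was the lowest of the 3 controls in all 4 tissues for *Slfn4*, *Slfn8* and *Slfn9*, in 3 for *Slfn3*, in 2 for *Slfn1* and in 1 for *Slfn2* and *Slfn5*. Control 1 is also the control with counts of *Xist*, and the share of all genes with control 1 lowest is not given here. Whether sex has a part in these values was not tested.

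**Figure D4:**
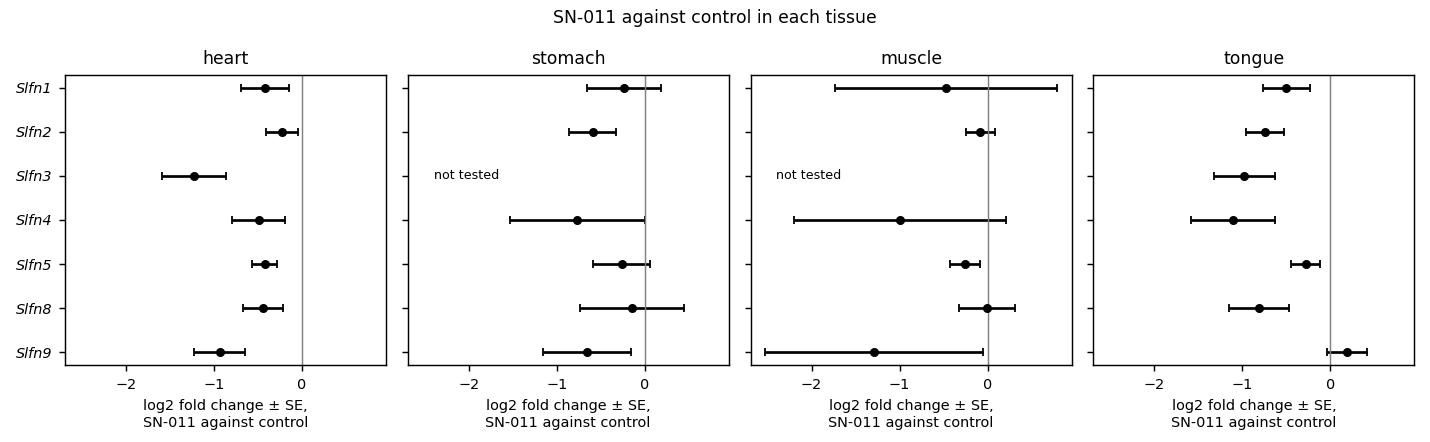
Log2 fold change of SN-011 against control for each Schlafen gene (x axis, with SE bars from the edgeR fit of each tissue, 3 against 3 samples). The values lie left of 0 except Slfn9 in the tongue, at 0.19, and Slfn8 in muscle is at -0.01. When single libraries of muscle or stomach are left out, small values of Slfn1, Slfn2 and Slfn8 change sign.

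Other cell markers also differed between the tongue controls, in differing orders. Neutrophil markers summed to 372 CPM in control 3 against 7.91 to 14 CPM in the other 5 samples. Macrophage markers summed to 2467, 1496 and 1151 CPM in controls 1, 2 and 3 and 1493 to 1876 CPM with SN-011, so that control 1 was highest. The keratins of the stratified epithelium, *Krt4*, *Krt13* and others, summed to 13316, 41955 and 59996 CPM in controls and to between 16703 and 25362 CPM with SN-011. For these keratins control 1 was lowest. Gastric gland markers, which a tongue, heart or muscle should lack, summed to 2505 CPM in tongue control 2, 1803 CPM in tongue control 3, 2566 CPM in heart control 2 and 556 CPM in muscle control 2. The third controls of heart and muscle had 243 and 233 CPM, and control 1 of these 3 tissues had 21.9 to 39.0 CPM, against 5.64 to 39.3 CPM in the SN-011 samples of these tissues. The part of these cells in the Schlafen values was not tested.

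As the stomach is the tissue with the most *Slfn4*, the size of such a stomach-like part was worked out. The gastric marker sum of tongue control 3 was 5.55% of that of stomach control 3, that of tongue control 2 was 4.53% of stomach control 2, and that of heart control 2 was 4.83% of stomach control 2. Taking the same percentage of the *Slfn4* level of that stomach library gave 61.8 of 555 CPM in tongue control 3, 36.9 of 361 CPM in tongue control 2 and 39.3 of 123 CPM in heart control 2, on the scale of all 24 samples. With that amount taken off each sample, the mean of *Slfn4* was 48.8% lower with SN-011 than in controls in the tongue, compared with 53.5% as measured. In the heart it was 20.5% lower, compared with 29.3%, and in muscle 41.7% lower, compared with 50.5%. For the other 6 members, the same subtraction moved the difference by 3.28 percentage points at most in these 3 tissues, except for *Slfn9* in the tongue, where the SN-011 mean went from 13.9% to 20.1% above that of the controls. These amounts assume a part like the same-numbered stomach library, which was not tested. *Slfn4* and the gastric sum were 339 and 98404.5 CPM in stomach control 1, and 1113 and 27490.3 CPM in stomach control 3. Another stomach library would thus give other amounts.

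The change under SN-011 was also compared between tissues, as an interaction in the fit of all 24 samples. None of the 42 differences, 7 members over 6 pairs of tissues, passed an adjusted p of 0.05, with 0.409 the smallest. All genes gave 0.00507% called for heart against muscle, 2.01% for heart against stomach, 0% for heart against tongue, 0.0355% for muscle against tongue, 6.95% for stomach against muscle and 0.821% for stomach against tongue. A p that misses the threshold does not show that the tissues responded alike.

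The rest of the interferon pathway gives the setting. Among its ligands and receptors, 5 of 7 genes were tested in the heart and tongue and 4 in the stomach and muscle, and 0 were called. Of 4 feedback inhibitors, 4, 2, 2 and 4 were negative and 0 were called. *Usp18*, an inhibitor of the interferon receptor that is itself induced by interferon, had opposite signs in the stomach (log2 fold change -1.30, SE 0.34, adjusted p = 0.0898, edgeR) and muscle (0.71, SE 0.11, adjusted p = 0.0948).

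Of 20 interferon-stimulated targets, 19 in the heart and 20 in each of the other tissues had a negative log2 fold change, and 1 was called, *Cxcl10* in the heart, a chemokine that draws T cells. *Cxcl10* was 111 ± 36.2 CPM in heart controls and 39.5 ± 9.36 with SN-011 (SD, n = 3; log2 fold change -1.49, SE 0.24, adjusted p = 0.0332, edgeR). An unadjusted p under 0.05 with a lower mean was found for 15 of the 20 in the heart, 18 in the stomach, 11 in muscle and 19 in the tongue. The corresponding numbers of Schlafen genes were 3 of 7, 0 of 6, 0 of 6 and 3 of 7. In the same order of tissues, the targets had median log2 fold changes of -0.55, -1.11, -1.10 and -0.92, and that of the Schlafen genes was nearer to 0 in each tissue. The difference between these lists was not tested, and the lists share the same samples.

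**Figure D5:**
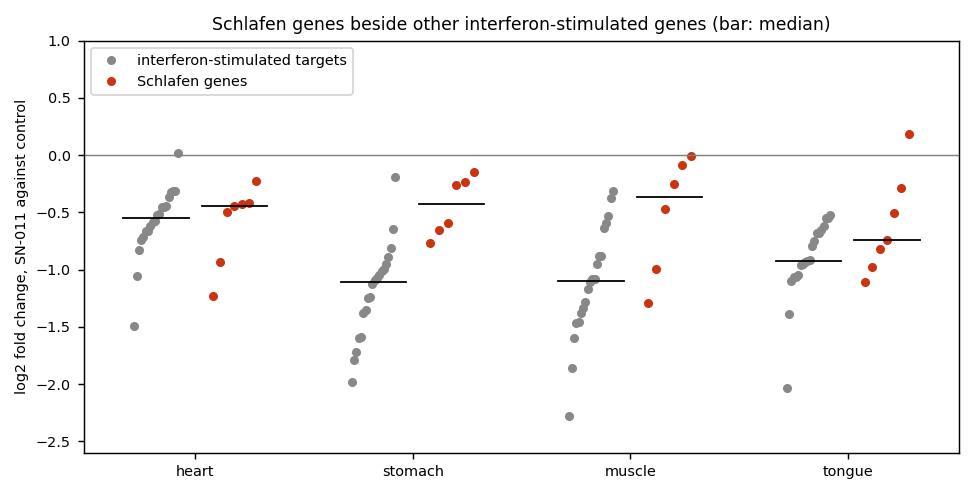
Log2 fold change of SN-011 against control (y axis) for the 20 interferon-stimulated targets (grey) and the Schlafen genes tested (red) in each tissue, 1 point per gene, with a bar at the median. The medians in the stomach are -1.11 for the targets and -0.43 for the Schlafen genes.

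The genes outside the family whose pattern was most like that of each member were found over the 24 samples, as the Pearson correlation of log2 CPM less the mean of its tissue, among 18343 genes. They were *Rinl* for *Slfn1* (r = 0.99, Spearman's rho = 0.95), *Samhd1* for *Slfn2* (0.92, 0.92), *Rab19* for *Slfn3* (0.93, 0.86), *Oas1a* for *Slfn4* (0.97, 0.89), *Ptpra* for *Slfn5* (0.90, 0.91), *Gm8995* for *Slfn8* (0.83, 0.77) and *Gbp10* for *Slfn9* (0.94, 0.82). The zeros of muscle SN-011 replicate 2 weighed on several of these. Over the other 23 samples, the leading genes were *Rinl* for *Slfn1* (r = 0.90), *Samhd1* for *Slfn2* (0.92), *Arhgap18* for *Slfn3* (0.90), *Helz2* and *Isg15* for *Slfn4* (0.86 and 0.86), *Ptpra* for *Slfn5* (0.90), *Gm4070* and *Ifi203* for *Slfn8* (0.94 and 0.91) and *1700052K11Rik* for *Slfn9* (0.88). *Rinl*, *Samhd1* and *Ptpra* thus led in both sets of samples. The points share libraries, depth and treatment, and these values are descriptions.

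Among themselves over those 23 samples, the members followed each other unevenly. The highest r was 0.74, between *Slfn1* and *Slfn8*, which lie on opposite strands with *Slfn2* between them. *Slfn3* and *Slfn4*, which are adjacent, had r = 0.70, as had *Slfn3* and *Slfn9*, and *Slfn8* and *Slfn9*, whose printed promoter stretches carry the same match, had r = 0.62. The lowest r was 0.17, between *Slfn4* and *Slfn5*.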

How the data were processed

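The authors deposited 1 table of raw counts per sample, with read pairs counted per Ensembl gene and no normalization. Per the study's methods, Trimmomatic, hisat2 and featureCounts were used in turn to trim reads of 150 bases, map them and count the uniquely mapped pairs. The submitters' processing notes name HISAT2, HTSeq and mm10. Which counter made the deposited counts, the annotation and the strand setting are not given in the sources used here. Where reads of near-identical genes were dropped as multiply mapped, their counts are lower bounds on the reads.

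Of 54532 identifiers, 54495 were in GENCODE M21 (GRCm38), which gave symbols and positions. Samples were grouped by labelled tissue and treatment. Each tissue was fitted alone over all genes with the edgeR quasi-likelihood test (version 4.0.16 in R 4.3.3), after TMM and the filterByExpr filter at a count of 10 and a total of 15, with a prior count of 0.125 and Benjamini-Hochberg adjustment, threshold 0.05. Levels and differences between tissues came from 1 fit of all 24 samples. CPM printed for SN-011 against control were scaled within a tissue, and CPM per kb over all samples. The scripts were tested on simulated data. Alternatives were DESeq2 1.42.0, its size factors, library size alone, 2 other filters, the edgeR exact test, a joint fit, a prior count of 2, removal of the 10 most abundant genes, the longest transcript as length, the control samples alone, the replicate number as a block, and each library left out. Named genes were all 7 members, the list genes with an adjusted p under 0.05 or among the 2 smallest p of their list in a tissue (a few of these are printed), and the 3 genes most like each member. Single marker genes and the genes of the 23-sample likeness were named after values were seen. The members and lists were chosen with earlier results of these data known. A list of signalling genes and 1 promoter motif are not reported here. Transcripts were compared and sequences read with Biopython 1.88. Promoter windows are from RefSeq, GRCm38.p6, and all 7 members had an entry.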

Additional observations from a re-analysis of the deposited data

How the results depend on the processing

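With 3 samples a group, depth limited *Slfn3* most, which had 0 to 12 counts in stomach libraries. In the heart, 2 members were called with no filter and 2 with DESeq2, against 0. Counts of members called without 1 library ran from 0 to 0 (heart), 0 to 0 (stomach), 0 to 1 (muscle) and 0 to 4 (tongue), and the median log2 fold change from -0.74 to -0.18 (heart), -0.65 to -0.14 (stomach), -0.90 to -0.28 (muscle) and -0.96 to -0.61 (tongue). Log2 fold changes that turned sign without 1 library ran from -0.54 to 0.14 for *Slfn1* and -0.64 to 0.54 for *Slfn8* in the stomach, and from -0.90 to 0.10 for *Slfn1*, -0.17 to 0.0029 for *Slfn2* and -0.22 to 0.12 for *Slfn8* in muscle. Same-numbered control and SN-011 samples had a mean correlation of -0.02, 0.06, 0.04 and -0.26 (heart, stomach, muscle, tongue). These values do not settle whether the samples were paired. With a replicate block, *Slfn8* turned to 0.16 in the stomach and 0.013 in muscle, the members' median in muscle moved to -0.82, and no member was called. In the heart the block lowered the SE of *Slfn1* from 0.27 to 0.11, of *Slfn4* from 0.30 to 0.13 and of *Slfn8* from 0.23 to 0.11. That of *Slfn2* was 0.18 and then 0.17, and the smallest adjusted p there was 0.0527 (*Slfn9*, edgeR). Between tissues, same-numbered controls had a mean correlation of 0.23 (from -0.14 to 0.50) and same-numbered SN-011 samples of 0.06, and 19 level differences were called with that block. Of 413 member log2 fold changes under alternatives, 12 had the other sign and 9 were called. Among these alternatives, the share of all genes called is given above only without tongue control replicate 1 and without muscle SN-011 replicate 2.

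For levels between control samples, 22 differences were called. Requiring 10 counts in every sample left 3 members to test, as muscle SN-011 replicate 2 had zeros, and 11 differences called (3 in heart against muscle, 2 in heart against stomach, 2 in heart against tongue, 2 in muscle against tongue, 1 in stomach against muscle and 1 in stomach against tongue). No filter left 1 in stomach against tongue. With libraries left out (1 at a time, or, chosen after seeing the data, every control replicate 1 and muscle SN-011 replicate 2 together), the number was 16 to 27 in all, 5 to 6 for heart against muscle, 2 to 5 for heart against stomach, 2 to 4 for heart against tongue, 3 to 5 for muscle against tongue, 3 to 4 for stomach against muscle and 1 to 4 for stomach against tongue. Differences of response stayed at 0 called in each setting tried. The share of all genes called in each of these settings is not given here, so the counts show only how the calls moved.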

Other observations

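The other genes of the Schlafen locus and the distant relative *Slfnl1* were low. *Slfn14* had at most 9 counts and *Slfnl1* at most 10 in any sample. The pseudogene *Slfn10-ps*, which lies between *Slfn8* and *Slfn2*, was at 1.96 ± 0.129 CPM in heart controls and 0.696 ± 0.262 CPM with SN-011 (SD, n = 3; log2 fold change -1.49, SE 0.41, adjusted p = 0.0958, edgeR), and its values in the tongue were 2.10 ± 1.32 and 0.754 ± 0.344 CPM. In the stomach its log2 fold change was 0.50 (SE 0.87). *Slfn10-ps* shares unchanged stretches with *Slfn9*, and its reads and those of *Slfn9* may not be fully separated.

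*Ifng*, the type II interferon made by T cells and natural killer cells, was low in the heart, at 2.53 ± 1.25 CPM in controls and 0.623 ± 0.405 CPM with SN-011 (SD, n = 3; log2 fold change -2.01, SE 0.58, adjusted p = 0.107, edgeR).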
